A study of Mus musculus with 16 samples.

Results

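The acetylation of histone H3 at lysine 27 (H3K27ac) was mapped by ChIP-seq in mouse CD8+ T cells grown with the LSD1 inhibitor GSK2879552 (GSK) or with vehicle (Veh). The data are the H3K27ac peak lists of these treatments, with 7410 peaks in Veh cells and 2751 in GSK cells, or 10161 of the 214352 peaks in the 12 lists of the series. All peaks of both lists were taken, and none was chosen by its value. The CD8+ T cells came from spleens of the OT1 strain, a transgenic in which the T cell receptor recognises a peptide of ovalbumin. Activation lasted 48 h and used anti-CD3, anti-CD28 and IL-2. The cells were then expanded in IL-2 for 3 days, and 0.5 μM GSK or vehicle was present throughout. The other 10 lists hold LSD1, H3K4me1, H3K4me2, H3K4me3 and RNA polymerase II (Pol II) peaks of the same treatments. Each treatment had 1 H3K27ac library, so there were no replicates, and nothing below was set against a spread between replicates. The study states far fewer unique read pairs for the GSK H3K27ac library than for the Veh library. Its methods also describe drawing equal numbers of reads at random when signals were compared, but do not make clear if the peaks were called on those reads. Depth and treatment therefore cannot be told apart in the lengths of these lists.

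H3K27ac is placed by the acetyltransferases p300 and CBP and removed by histone deacetylases. It marks nucleosomes beside the start sites of active genes and at active enhancers, where it is read by BET proteins. LSD1 removes methyl groups from mono- and dimethylated H3K4 and works within the CoREST complex together with HDAC1 and HDAC2, which remove acetyl groups. Activated CD8+ T cells are known for active chromatin at effector genes such as Gzmb, at cell cycle genes and at genes of T cell receptor signalling.

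Peak centres from 5 places outside promoters are shown to give the kinds of sequence behind the lists. They were chosen after their values were seen, as wide acetylated regions listed in both treatments and as regions listed in a single treatment. Each line is 300 bases of the plus strand of GRCm38 around a peak centre, taken from the RefSeq assembly, and none of them overlaps an annotated exon. Capitals mark matches on either strand to the AP-1 motif TGANTCA, the ETS core CGGAAG or the RUNX core TGTGGT. AP-1, ETS and RUNX proteins are transcription factor families that act in T cells. The lines belong to the widest GSK peak, at chr11:83078865-83079164 beside Slfn2, to chr4:32250922-32251221 upstream of Bach2, to chr14:56296933-56297232 upstream of Gzmb, to the widest peak outside promoters that was listed in Veh only, at chr19:45576428-45576727 in an intron 16.0 kb downstream of the Dpcd start site, and to a peak listed in GSK only at chr11:99162770-99163069 upstream of Ccr7.
Slfn2, both treatments: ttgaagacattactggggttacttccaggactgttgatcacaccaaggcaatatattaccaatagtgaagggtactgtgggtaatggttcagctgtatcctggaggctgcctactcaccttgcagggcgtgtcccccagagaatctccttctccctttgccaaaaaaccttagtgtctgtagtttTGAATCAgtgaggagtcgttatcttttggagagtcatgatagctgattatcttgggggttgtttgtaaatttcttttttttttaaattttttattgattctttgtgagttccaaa
Bach2, both treatments: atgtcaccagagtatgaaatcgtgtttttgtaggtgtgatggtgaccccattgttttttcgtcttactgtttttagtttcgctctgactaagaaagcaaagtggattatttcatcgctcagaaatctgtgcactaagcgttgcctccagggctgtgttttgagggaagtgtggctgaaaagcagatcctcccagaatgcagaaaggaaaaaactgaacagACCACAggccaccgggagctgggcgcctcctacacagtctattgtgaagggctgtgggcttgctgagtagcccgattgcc
Gzmb, both treatments: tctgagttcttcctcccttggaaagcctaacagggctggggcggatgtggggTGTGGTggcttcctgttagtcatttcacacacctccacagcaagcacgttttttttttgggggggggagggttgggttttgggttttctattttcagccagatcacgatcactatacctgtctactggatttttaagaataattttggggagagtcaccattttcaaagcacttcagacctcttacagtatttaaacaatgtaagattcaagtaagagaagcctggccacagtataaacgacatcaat
Dpcd, Veh only: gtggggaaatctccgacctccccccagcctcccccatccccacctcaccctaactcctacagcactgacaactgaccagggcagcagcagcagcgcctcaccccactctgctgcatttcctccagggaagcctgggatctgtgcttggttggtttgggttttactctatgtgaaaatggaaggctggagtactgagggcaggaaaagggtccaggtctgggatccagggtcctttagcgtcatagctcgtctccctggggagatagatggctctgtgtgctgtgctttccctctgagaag
Ccr7, GSK only: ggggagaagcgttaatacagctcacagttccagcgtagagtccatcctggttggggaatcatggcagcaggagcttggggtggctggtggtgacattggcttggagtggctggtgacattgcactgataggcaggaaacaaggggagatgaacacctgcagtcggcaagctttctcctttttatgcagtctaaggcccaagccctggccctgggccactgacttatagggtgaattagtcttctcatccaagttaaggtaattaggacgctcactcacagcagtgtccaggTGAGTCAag
The Slfn2 and Ccr7 windows each held an AP-1 match, the Bach2 and Gzmb windows each held a RUNX match, and the Dpcd window held none of the 3 motifs.

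These windows differ in how they were called. Slfn2, of the Schlafen family, lies 13.9 kb upstream of its peak, which was 2620 bp wide in GSK cells, at a fold enrichment over input of 3.82 (−log10 p 11.5). The Veh peak that contains it was 2728 bp wide, at fold 3.48 (−log10 p 19.2). Upstream of Bach2, a repressor that restrains effector differentiation, the peak 166 kb from the start site was 2256 bp wide in GSK (fold 3.14) and 2362 bp in Veh (fold 2.95). The Gzmb region, 34.7 kb upstream of the start site of granzyme B, was 1500 bp wide in GSK (fold 3.80) and 1960 bp in Veh (fold 3.43). At all 3 places the GSK peak was narrower, had the higher fold and had the lower −log10 p. Most 1 to 1 pairs of overlapping Veh and GSK peaks did the same, at 89.3%, 90.3% and 87.3% for these 3 traits. The Dpcd region was 2742 bp wide in Veh, at fold 2.78 (−log10 p 8.96), and had no GSK peak. The Ccr7 region was 230 bp wide in GSK, at fold 4.85 (−log10 p 11.2), and had no Veh peak. CCR7 guides naive and central memory T cells to lymph nodes.

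The GSK list was shorter, but its peaks had the higher fold enrichment. The GSK list held 0.371 times as many peaks as the Veh list (95% interval 0.355 to 0.388, from counting error only). Median fold was 3.902 in Veh and 4.91 in GSK. It was 4.59 in the 2751 Veh peaks of highest −log10 p, so with lists of equal length the medians lay closer together. In the full lists the lowest fold was 1.52 in Veh and 2.26 in GSK. The number ratio turned with fold: between fold 3 and 3.5 there were 1319 Veh and 57 GSK peaks, between 4.5 and 5 there were 839 and 778, and between 6 and 7 there were 155 and 255. Among peaks with a fold of at least 5, the GSK list held 1217 and the Veh list 820, a ratio of 1.48 (1.36 to 1.62). Peaks of equal fold also differed in −log10 p. Between fold 4.5 and 5 the median −log10 p was 12.4 in Veh and 8.04 in GSK, and between 6 and 7 it was 21.1 and 12.3. At equal fold, GSK peaks thus had the lower −log10 p wherever the fold was 3.5 or more, and low-fold peaks were nearly all in the Veh list. The part of sequencing depth in these differences was not tested.

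**Figure D1:**
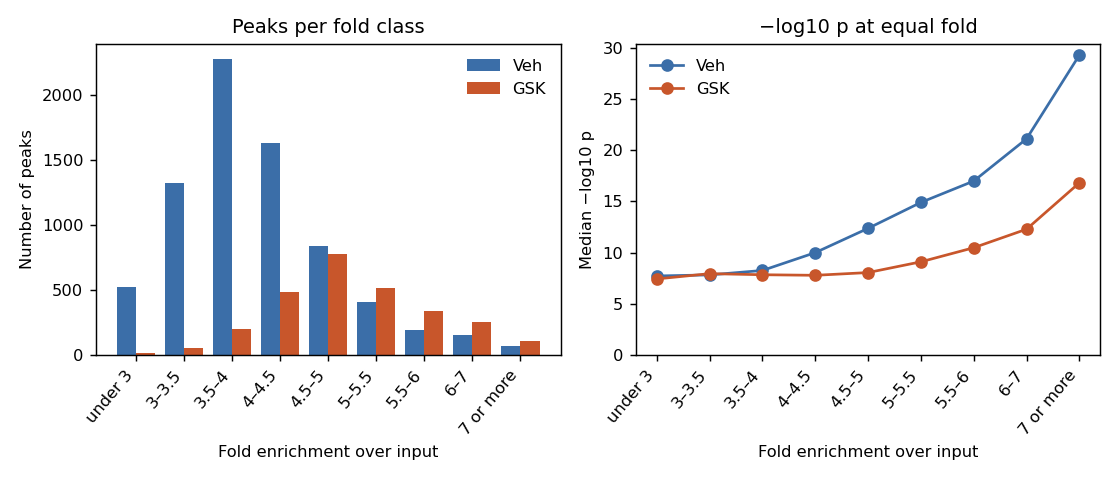
Left, number of H3K27ac peaks in each class of fold enrichment over input for Veh and GSK. Right, median −log10 p of the peaks in each class. The Veh list holds more peaks below fold 5, the GSK list more from fold 5 upward, and the Veh medians lie above the GSK medians from fold 3.5 upward.

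GSK peaks were also narrower. Median width was 555 bp in Veh and 394 bp in GSK, and the lists covered 4.85 Mb and 1.38 Mb. Peaks under 300 bp made up 23.5% of the Veh list and 35.2% of the GSK list. Peaks of 1500 bp or more numbered 375 in Veh (5.06%) and 26 in GSK (0.945%). A total of 2598 Veh and GSK peaks overlapped each other 1 to 1. In 89.3% of these pairs the GSK peak was the narrower, in 90.3% it had the higher fold and in 87.3% it had the lower −log10 p. The median widths of the pairs were 784 bp in Veh and 404.5 bp in GSK, and 64.3% of all GSK peaks lay wholly inside Veh peaks. Order was largely kept: over 2550 pairs that were not called in all 12 lists, the fold of the Veh and GSK peak had a Pearson r of 0.79 on the log2 scale and a Spearman rho of 0.74. The rho was 0.59 for −log10 p and 0.53 for width. These are descriptions across regions of 1 library each, which share base composition and mappability.

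Of the 10 widest Veh regions, 9 had a GSK peak, which covered part of the Veh width. The widest was a region of 3543 bp beside Actb, the gene of beta-actin, where a GSK peak covered 1033 bp. The region of 3315 bp that lies 21.6 kb upstream of Ly6e had 261 bp covered in GSK, and that of 2972 bp upstream of Fam102a had 1350 bp covered. The promoter region of Cdc42se1, a binding protein of the GTPase CDC42, was 2938 bp wide and had no GSK peak. Upstream of Sema4d, a semaphorin, a region of 2931 bp had 81 bp covered in GSK. Among these 10 regions, Brd2, which encodes a BET reader of acetylated histones, kept the most in GSK, with 1499 of 2790 bp. The 5 widest GSK peaks were those beside Slfn2, in an intron 16.4 kb from the Kcnip1 start site (2274 bp), upstream of Bach2, at the promoter of Ywhaz (1913 bp), which encodes a 14-3-3 protein, and at that of Coro1a (1865 bp), an actin-binding protein of leukocytes. Each of them overlapped a wider Veh peak, and these measured 2728, 2427, 2362, 2096 and 2610 bp in the same order.

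Nearly all GSK peaks were Veh peaks too, while most Veh peaks had no GSK peak. Of the 2751 GSK peaks, 2614 overlapped a Veh peak by at least 1 bp (95.02%, Wilson 95% interval 94.1 to 95.8). Of the 7410 Veh peaks, 2609 overlapped a GSK peak (35.2%, 34.1 to 36.3) and 4801 did not. Sharing followed the rank of the Veh peak. With the Veh list divided by −log10 p into 10 rank classes of equal size, 76.1% (72.9 to 79.0) of the highest class had a GSK peak, 32.7% of class 5 and 5.40% (3.99 to 7.27) of the lowest. It also followed width: 10.3% of Veh peaks under 250 bp and 72.8% of those of 1500 bp or more had a GSK peak. Over the rank classes of the GSK list the share with a Veh peak went from 98.2% to 87.6%. All 26 GSK peaks of 1500 bp or more and all 285 between 900 and 1500 bp overlapped a Veh peak.

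**Figure D2:**
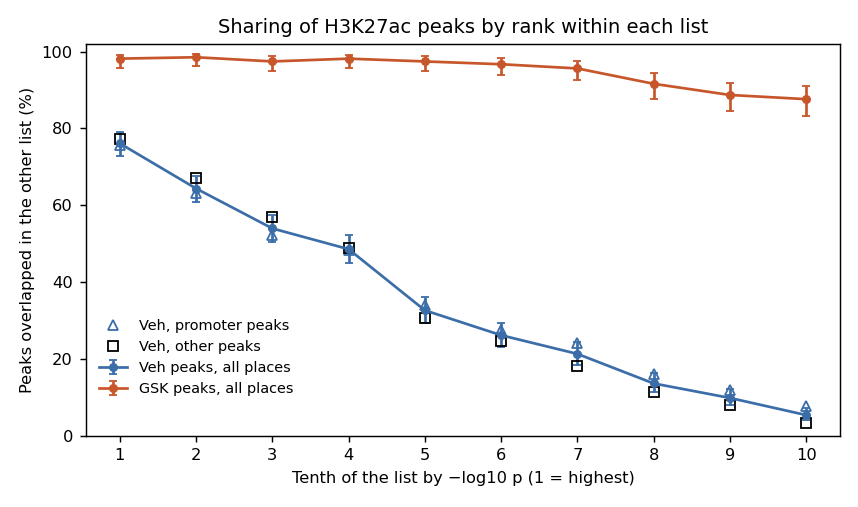
Share of H3K27ac peaks overlapped by a peak of the other list, by 10 rank classes of each list from the highest to the lowest −log10 p. Filled circles are all peaks with Wilson 95% intervals, and open symbols divide the Veh peaks into promoter and other peaks. The Veh share goes from 76.1% to 5.40%. Promoter peaks lie below other peaks in classes 1 to 4 and above them in classes 5 to 10.

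Promoters, here windows of 1 kb on either side of a transcription start site (TSS) of a curated RefSeq transcript, held most H3K27ac peaks in both treatments. By their centres, 4301 Veh peaks lay in promoters (58.0%, 56.9 to 59.2), 1515 between genes (20.4%), 1484 in introns (20.0%), 56 in other exons and 54 in coding exons. Among GSK peaks, 1786 lay in promoters (64.9%, 63.1 to 66.7), 517 between genes (18.8%), 420 in introns (15.3%), 12 in other exons and 16 in coding exons. The promoter share was 6.88 percentage points higher in GSK (4.76 to 8.97) over the full lists. Promoter peaks of the Veh list also had a GSK peak more often than its other peaks, at 39.2% and 29.6%, a difference of 9.62 points (7.44 to 11.8). Within the rank classes of the Veh list the mean difference was 1.47 points, with promoters higher in 6 of 10. The direction followed rank: other peaks were higher in classes 1 to 4 and promoters in classes 5 to 10. In class 2 the shares were 63.2% of promoter and 67.1% of other peaks, and in class 10 they were 7.63% and 3.36%. Promoters made up 73.4% of the highest class and 47.8% of the lowest.

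With the Veh list held to its 2751 peaks of highest −log10 p, which began at 10.6, the lists had the same length. Then 61.9% of Veh peaks (60.0 to 63.7) and 62.1% of GSK peaks (60.3 to 63.9) overlapped, and about as many peaks were listed in Veh only (1049) as in GSK only (1043). Promoters held 67.6% of these Veh peaks and 64.9% of the GSK peaks, a difference of −2.69 points (−5.18 to −0.191). This direction depended on the ranking. With Veh peaks ranked by fold the difference was −10.3 points, and with −log10 p times width it was 8.07 points, so no direction is drawn from it. Promoter and other Veh peaks overlapped a GSK peak about equally often, at 61.7% (59.5 to 63.9) and 62.2% (58.9 to 65.3).

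Within promoters, narrow and wide peaks had different places. Veh promoter peaks under 300 bp were centred 100 to 300 bp downstream of the TSS in 57.4% of cases (54.4 to 60.4, n = 1048), and 6.77% were centred within 100 bp of it. GSK promoter peaks of that width gave 58.4% (54.5 to 62.2, n = 627) and 7.34%. That position is where the first nucleosomes downstream of an active TSS lie. Promoter peaks of 900 bp or more were spread around the TSS instead: 18.6% of 858 Veh peaks and 17.1% of 158 GSK peaks were centred 100 to 300 bp downstream, and 33.6% and 29.1% were within 100 bp. The pattern was alike in both treatments, with overlapping intervals for each of these shares.

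**Figure D3:**
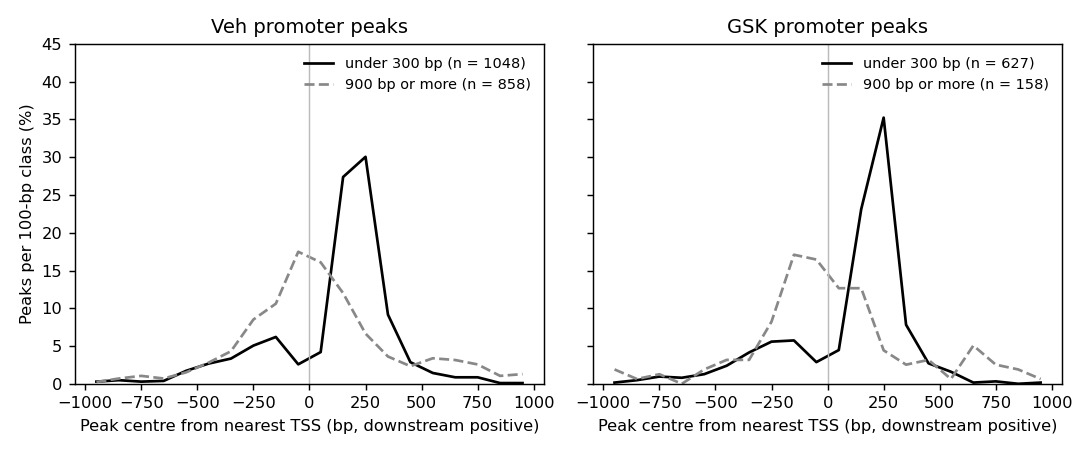
Position of promoter peak centres relative to the nearest TSS, as percent of peaks per 100-bp class, for narrow (under 300 bp) and wide (900 bp or more) H3K27ac peaks of Veh and GSK cells. In both treatments narrow peaks are centred mostly 100 to 300 bp downstream, with a lower shoulder upstream and few at the TSS, and wide peaks lie around the TSS.

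Each H3K27ac peak was compared with the lists of the other antibodies. Nearly every promoter H3K27ac peak carried H3K4me3, the mark of active promoters, in its own treatment: 99.1% of shared and 97.8% of Veh-only promoter peaks in Veh, and 98.9% of the 90 GSK-only promoter peaks in GSK. Pol II divided the classes more. It was listed in Veh at 91.1% (89.7 to 92.4) of shared promoter peaks and at 76.0% (74.4 to 77.6) of Veh-only promoter peaks. Under GSK it was listed at 85.8% and 63.5% of the same places. Of the 90 GSK-only promoter peaks, 47.8% (37.8 to 58.0) had Pol II in GSK and 55.6% (45.3 to 65.4) had it in Veh. Shared promoter peaks of the GSK list had it in 82.2% and 87.6%. LSD1 was listed in Veh at 72.0% of shared and 61.2% of Veh-only promoter peaks, and in GSK at 81.7% and 72.6%. H3K4me2 went the other way, at 28.1% of shared and 39.9% of Veh-only promoter peaks in Veh. Ranks differ between these classes. With lists of equal length, Pol II was at 93.4% of shared and 83.1% of Veh-only promoter peaks in Veh. In the GSK list it was at 85.9% of shared and 70.5% of GSK-only promoter peaks. LSD1 was at 71.7% of shared and 62.2% of Veh-only promoter peaks in Veh. In the GSK list LSD1 did not divide them, at 77.1% of shared and 77.7% of GSK-only promoter peaks.

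Away from promoters, Veh peaks with a GSK peak carried most of the other marks more often than Veh peaks without. In Veh, Pol II was listed at 65.0% (61.9 to 68.0) of shared and 34.6% (32.7 to 36.7) of Veh-only peaks, H3K4me3 at 67.5% and 44.7%, LSD1 at 65.3% and 43.1%, and H3K4me2 at 49.5% and 36.7%. The enhancer mark H3K4me1 hardly divided them, at 53.9% (50.6 to 57.1) and 51.1% (49.0 to 53.2). Ranks differ between these classes, since shared peaks rank higher. With lists of equal length, Pol II was at 75.5% of shared and 58.2% of Veh-only peaks, LSD1 at 69.5% and 49.0%, and H3K4me1 at 53.4% and 41.5%. In the GSK list, Pol II was at 60.9% of shared and 31.6% of GSK-only peaks, and LSD1 at 47.0% and 39.3%. H3K4me1 went the other way there, at 37.3% and 42.5%. By combination, 982 Veh peaks outside promoters had H3K4me1 without H3K4me3, and 22.5% of them (20.0 to 25.2) had a GSK H3K27ac peak. The 633 with both marks had one in 43.4% (39.6 to 47.3), the 966 with H3K4me3 alone in 35.9%, and the 528 with neither in 14.8%. The median width was 829 bp with both marks and 438 bp with neither. In the GSK list, H3K4me1 without H3K4me3 was found at 16.6% (14.4 to 19.1) of peaks outside promoters, compared with 31.6% (30.0 to 33.2) in the Veh list, and H3K4me3 without H3K4me1 at 47.6% and 31.1%. These marks come from lists of their own length, and the part of that in the shares was not tested.

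**Figure D4:**
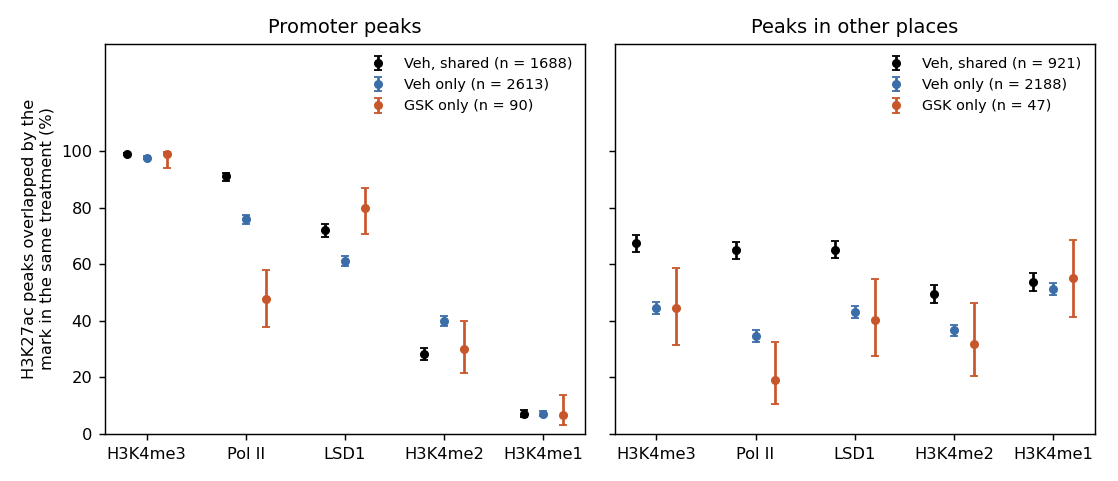
Share of H3K27ac peaks overlapped by a peak of another antibody in the same treatment, for peaks shared between treatments (Veh values), listed in Veh only and listed in GSK only, with Wilson 95% intervals. Left, promoter peaks. Right, peaks in other places. H3K4me3 is near 99% at promoters in every class, and Pol II divides shared from unshared peaks in both panels.

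By gene, promoter H3K27ac was listed for 5367 of 26089 genes in Veh (20.6%) and 2246 in GSK (8.61%). In both treatments it was listed for 2159 genes, in Veh only for 3208 (58.8% of the 5454 genes with it in either) and in GSK only for 87 (1.6%). Of genes with a Veh promoter peak, 40.2% (38.9 to 41.5) had a GSK one. With lists of equal length, 2363 genes had it in Veh (9.06%) and 2246 in GSK (8.61%), 888 of them in Veh only (28.3% of 3134) and 771 in GSK only (24.6%). The gene lists below are read against these shares.

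Markers of the labelled cell type were looked up first. Of 12 genes that mark CD8 T cells, 9 had promoter H3K27ac in Veh and 2 in GSK, namely Lck and Zap70. The share kept was 22.2%, compared with 40.2% of all genes with a Veh promoter peak. Between lists of equal length, 2 of 3 were kept (66.7%), compared with 62.4% of all genes. Cd8b1, which encodes the beta chain of CD8, had a promoter fold of 3.08 in Veh and no GSK peak, and Cd8a had no promoter peak in either list. None of 4 CD4 T cell, 5 B cell and 3 NK cell markers had a promoter peak in either treatment. Of 5 myeloid markers, Spi1 had a Veh peak of 213 bp with a −log10 p of 6.29, near the bottom of the list.

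Among 20 genes of T cell receptor signalling, 14 had promoter H3K27ac in Veh and 4 in GSK. The 4 were Lck, the kinase that starts the signal (fold 2.94 in Veh and 3.28 in GSK), Zap70, which it activates (4.10 and 5.02), the adaptor Lcp2 (3.89 and 3.91) and the phosphatase Ptprc, or CD45 (3.02 and 3.34). Each had the higher fold and the lower −log10 p in GSK, as had most 1 to 1 pairs of the whole lists (90.3% and 87.3%). Among the genes listed in Veh only were the receptor chains Cd3e and Cd247, the adaptor Lat, the exchange factor Vav1, Rac2, Sla2, Cd2, Cd5 and Cd8b1. The share kept, 28.6% of 14 genes, is below the 40.2% of all genes, at a median Veh rank of 3042.5 compared with 3165 for all genes with a Veh promoter peak. With lists of equal length, 4 of 6 genes in the Veh list were kept (66.7%), close to the 62.4% of all genes. Cd3e and Vav1 were then in Veh only, and none of the 20 in GSK only.

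Of 39 T cell transcription factors, 17 had a promoter peak in Veh and 4 in GSK. The share kept was 23.5%, compared with 40.2% of all genes. Their median Veh rank of 5086 was low, compared with 3165 for all genes with a Veh promoter peak. Ikzf1, Fli1, Stat3 and Runx1 had it in both. Among those in Veh only were Batf, Eomes, Fosl2, Foxp1, Irf4, Junb, Lef1, Myc, Nfatc1, Nr4a2, Runx3 and Satb1. For Myc, a driver of growth in activated T cells, the Veh peak was 1570 bp wide with a fold of 3.23. For Irf4, induced by receptor signalling, it was 825 bp wide with a fold of 3.08, and neither the promoter nor the 3 Veh peaks outside promoters nearest to Irf4 had a GSK peak. Stat3, a mediator of cytokine signals, had a fold of 4.35 in Veh and 5.09 in GSK. At equal length, 3 of 4 genes in the Veh list were kept (75%), compared with 62.4% of all genes. Nr4a2, an early gene of receptor signalling, was then in Veh only, with a fold of 5.19, and Runx1, a regulator of T cell development, in GSK only.

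Of 16 effector and cytokine genes, 5 had a promoter peak in Veh and 3 in GSK. The share kept was 60% of 5 genes, compared with 40.2% of all genes. Gzmb was 1270 bp wide in Veh (fold 3.30) and 394 bp in GSK (3.58). Nkg7, a granule protein, was 2842 bp wide in Veh (fold 2.96, −log10 p of 11.8), and its GSK promoter peak was 520 bp wide (fold 4.15, −log10 p of 11.9). Another GSK peak nearest to Nkg7, of 851 bp, was centred outside promoters, so the 520 bp are not its whole GSK coverage. Fasl, the death ligand, had a fold of 3.46 in Veh and 4.59 in GSK. Prf1, which encodes perforin, had a peak of 227 bp with a fold of 5.60 in Veh, at rank 926, and none in GSK. At equal length 2 genes were in both, Prf1 in Veh only and Fasl in GSK only. The share kept was then 66.7% of 3 genes, compared with 62.4% of all genes. Tnf had a fold of 3.04 in Veh and no GSK peak. Ifng, which encodes interferon gamma, had no promoter peak in either treatment.

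Among 10 inhibitory receptor genes, Tigit and Btla had promoter peaks in both treatments and Ctla4 in Veh only. The share kept was 66.7% of 3 genes, compared with 40.2% of all genes. For Tigit the fold was 3.40 in Veh and 5.40 in GSK, with −log10 p values of 8.30 and 11.1, so both values were higher in GSK. These are means over the peak, which was 1034 bp wide in Veh and 373 bp in GSK. Another Veh peak, 45.4 kb upstream of Tigit, had no GSK peak. Btla had folds of 3.82 and 4.71. Tigit and Btla were in GSK only when the lists had equal length, and no gene of the list was in Veh. The other 7 genes of the list had no promoter peak. Of 11 memory and progenitor genes, Bcl2, an inhibitor of apoptosis, and Cd44, an adhesion receptor, had promoter peaks in Veh and none did in GSK. Among all genes with a Veh promoter peak, 40.2% had a GSK one, and 2 genes are too few to set against that. None of the 11 was in either list at equal length.

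Of 17 genes of the IL-2 receptor and JAK-STAT pathway, 12 had promoter H3K27ac in Veh and 3 in GSK. The kinases Jak1 (folds of 4.33 in Veh and 5.41 in GSK) and Jak3 (3.23 and 4.37) and the kinase Pim1 (2.43 and 3.21) had it in both. The receptor chains Il2rb, Il2rg, Il4ra and Il15ra and the feedback inhibitors Cish, Socs1, Socs2 and Socs3 had it in Veh only, as did Pim2. The share kept was 25% of 12 genes, compared with 40.2% of all genes. Their median Veh rank was 4589, and that of all genes with a Veh promoter peak was 3165. At equal length Jak1 was in both, Jak3 and Pim1 were in GSK only, and none was in Veh only.

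Of 26 cell cycle and replication genes, 22 had promoter H3K27ac in Veh and 12 of these in GSK. That is 54.5%, compared with 40.2% of all genes. Their median Veh rank of 1424 was high, compared with 3165 for all genes with a Veh promoter peak. Between lists of equal length, 10 of 16 were kept, or 62.5%, close to the 62.4% of all genes, and 2 were in GSK only. Cdk1, which drives mitosis, had a fold of 5.40 in Veh and 6.50 in GSK. Pcna, the sliding clamp of replication, had folds of 5.13 and 6.14, and Mki67 of 5.31 and 6.20. The replication helicase genes Mcm3, Mcm4, Mcm5 and Mcm7 were listed in both, and Mcm2 (fold 4.86, rank 1224) and Mcm6 (fold 4.76, rank 936) in Veh only. Mcm3 and Mcm7 had a lower fold in GSK, at 6.73 and 6.21 for Mcm3 and 5.42 and 5.04 for Mcm7. Of 20 interferon response genes, 12 had promoter H3K27ac in Veh and 8 in GSK, or 66.7%: B2m, Bst2, H2-D1, H2-K1, Irf1, Irf7, Psmb9 and Tap1. Over all genes the share was 40.2%. The median Veh rank of the interferon genes was 2544.5, higher than the 3165 of all genes with a Veh promoter peak. The light chain of MHC class I, B2m, had folds of 3.55 and 4.92. Psmb9 and Tap1 share 1 promoter peak, 1610 bp wide in Veh and 1415 bp in GSK. Irf9, part of the interferon-activated complex ISGF3, ranked 531 in Veh (fold 4.87) and had no GSK peak. At equal length 5 interferon response genes were in both, 2 in Veh only and 3 in GSK only. The share kept was then 71.4% of 7 genes, compared with 62.4% of all genes.

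The 81 cytosolic ribosomal protein genes had promoter H3K27ac in 68 cases in Veh and 19 in GSK. In both lists stood 18, in Veh only 50 and in GSK only Rps6. The share kept, 26.5%, was below the 40.2% of all genes, at a median Veh rank of 3153 that was close to the 3165 of all genes. Between lists of equal length, 11 of 24 were kept (45.8%), compared with 62.4% of all genes, and 8 were in GSK only. Of 20 glycolysis and nutrient transport genes, 12 had promoter H3K27ac in Veh and 5 in GSK. Of the 12, 33.3% were kept, compared with 40.2% of all genes. Hk1, Pfkl, Pkm and Slc38a2 were in both, and Pfkl, a phosphofructokinase, had nearly equal folds of 6.72 and 6.79. Aldoa, Eno1, Gapdh, Ldha, Pfkp, Pgam1, Tpi1 and Slc3a2 were in Veh only. Slc7a5, the amino acid transporter that pairs with the product of Slc3a2, had a promoter peak in GSK only, 188 bp wide with a −log10 p of 6.63. At equal length 3 genes of the list were in both, 3 in Veh only (Aldoa, Ldha and Tpi1) and 2 in GSK only (Pkm and Slc7a5). The share kept was then 50% of 6 genes, compared with 62.4% of all genes.

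Of 17 genes that write, read or erase H3K27 acetylation, 8 had promoter peaks in Veh and 5 in GSK. The share kept was 62.5% of 8 genes, compared with 40.2% of all genes. Ep300, which encodes p300, was 1624 bp wide with a fold of 3.80 in Veh and 609 bp wide with a fold of 5.58 in GSK, with −log10 p values of 11.6 and 14.1. Brd2, Hdac7, Ncor1 and Sirt6 were the others in both, and Hdac1 and Hdac2 were among those in Veh only. Between lists of equal length 3 genes were in both, Hdac2 in Veh only, and Hdac7 and Ncor1 in GSK only. The share kept was then 75% of 4 genes, compared with 62.4% of all genes. Of 13 genes of LSD1 and its CoREST complex, 5 had promoter H3K27ac in Veh. Of these 5, 20% were kept, compared with 40.2% of all genes. Rcor1, the CoREST scaffold, was the only one in both, with folds of 4.01 and 4.68, and Gfi1, a repressor that recruits LSD1, Gse1, Hdac1 and Hdac2 were in Veh only. At equal length Gse1 and Hdac2 were in Veh only and Rcor1 in GSK only. Kdm1a, which encodes LSD1, had no promoter H3K27ac peak in either list.

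Between lists of equal length, 1475 genes had a promoter peak in both, and their ranks had a Spearman rho of 0.54. The rank moved by over 1000 places for 271 of them (18.4%). The largest climb was that of Ap1m1, a subunit of the AP-1 clathrin adaptor, from rank 2487 in Veh to 35 in GSK. Its peak went from 1373 bp with a fold of 4.25 to 199 bp with a fold of 8.29. Zfp219 climbed by 2350 places, Aen, a nuclease induced in apoptosis, by 2239, and so did Ing2, a reader of H3K4me3, whose peak is also that of AA386476. Amn1 had the largest drop, from rank 58 to 2167, with folds of 6.91 and 4.49. Cnot3, a subunit of the CCR4-NOT deadenylase, stood at rank 524 in Veh and 2517 in GSK, the shared peak of Trim12a and Gm15133 at 414 and 2391, and Ambra1, a regulator of autophagy, at 566 and 2449.

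Peaks outside promoters formed 2540 clusters when those within 12.5 kb of each other were joined, leaving out peaks called in all 12 lists. Of the 347 Veh peaks in the 96 clusters with at least 3 such peaks, 34.9% had a GSK peak (95% interval 30.0 to 40.025), and of the 2156 that stood alone 28.2% did (26.3 to 30.1). In the Gzmb cluster, 3 Veh peaks covered 4554 bp and 2 GSK peaks covered 1730 bp. The Bach2 cluster had 4645 bp in Veh and 2860 bp in GSK, or 61.6%, the highest share among the 20 clusters with the most Veh coverage. At Slfn2 the share was 52.3%, and beside Chaserr and Chd2 it was 46.0%. The Septin9 cluster, in a septin gene of the cytoskeleton, had 5 Veh peaks over 5208 bp and none in GSK, and the cluster nearest to Cd47, the signal against phagocytosis, had 5 Veh peaks over 4346 bp and none in GSK. H3K4me3 was listed there in both treatments, with 5 peaks in each at Septin9 and 2 in each near Cd47.

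**Figure D5:**
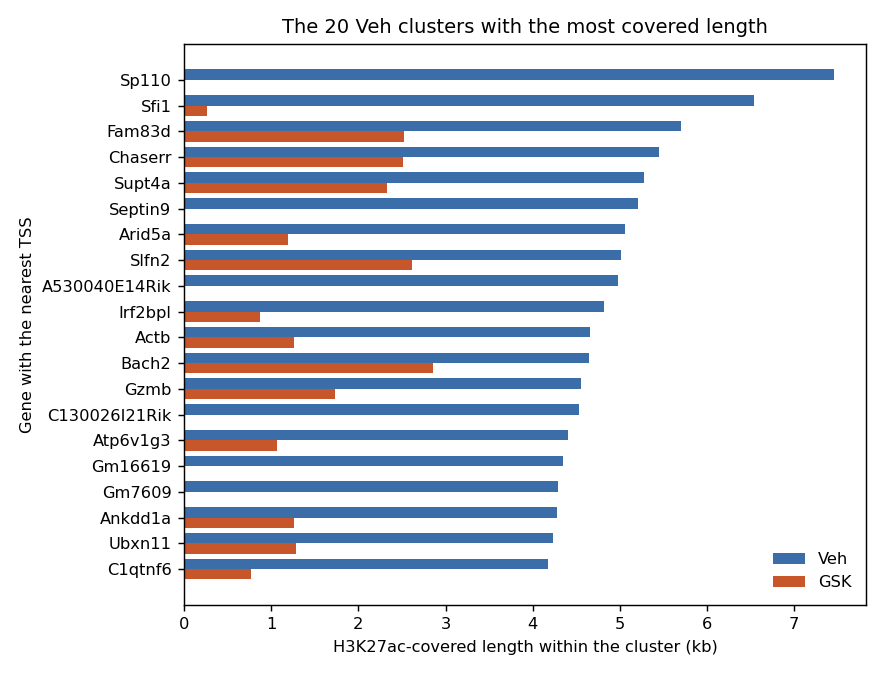
H3K27ac-covered length in Veh and GSK within the 20 clusters of Veh peaks with the most coverage, named by the nearest TSS. GSK coverage runs from 0 to 2860 bp, and the 4 clusters nearest to Sp110, A530040E14Rik, C130026I21Rik and Gm7609 lie in the same part of chromosome 1 and have no GSK peak.

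Peaks centred outside promoters were assigned to the listed gene with the nearest protein-coding TSS, where any curated TSS lay within 100 kb. Some, such as intronic peaks of Cd247 and Cdkn1a, reached into the gene's promoter window and were also counted above as its promoter peak. Near 92 listed genes there were 167 Veh peaks centred outside promoters, of which 54 had a GSK peak (32.3%, 95% interval 25.7 to 39.8). Among all 3079 Veh peaks outside promoters, leaving out those called in all 12 lists, the share was 28.9%. All 5 such Veh peaks of Bach2 had a GSK peak, with folds of 3.904 in Veh and 4.36 in GSK for the one 97.8 kb upstream. The 3 nearest to Ctla4 were all shared as well, and the one 28.7 kb upstream had folds of 2.82 and 4.57 and −log10 p values of 6.30 and 8.82. Both peaks nearest to Irf8 and both nearest to Prdm1, which encodes the regulator Blimp-1, were shared. Id2, an inhibitor of E proteins, had 1 peak 93.5 kb upstream that was 1730 bp wide in Veh and 1484 bp in GSK, with a lower fold in GSK (3.68 and 3.503). Of 6 peaks nearest to Foxp1 1 was shared, and of 6 nearest to Bcl2 2 were. None of the 3 nearest to Irf4, the 3 nearest to S1pr1, a receptor for exit from lymph nodes, or the 2 nearest to Tcf7, a factor of progenitor-like T cells, had a GSK peak. The peak 28.2 kb from the Ifng start site was in Veh only, at fold 3.39 (−log10 p 6.74).

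The 137 peaks in GSK only were narrow and of moderate fold. Their median width was 270 bp, their median fold 4.901 and their median −log10 p 7.58, and 5 of them were in the top 10% of GSK peaks by −log10 p. Promoters held 90 of them, 29 lay between genes, 16 in introns and 2 in exons. Of the 137, 15 had a Veh peak within 1 kb and 22 had one within 5 kb. The highest −log10 p, 19.0, belonged to a peak of 307 bp that lies 3.36 kb upstream of Malt1, the paracaspase of antigen receptor signalling to NF-κB, with a fold of 6.90. No LSD1, H3K4me1, H3K4me2, H3K4me3 or Pol II peak was listed there in either treatment. Next were promoter peaks of Snx15, a sorting nexin (fold 7.57), Zfp688 (6.85), Sgf29, a SAGA subunit that reads H3K4me3 (7.22), and Fez2 (7.34), each 202 to 261 bp wide and centred 139 to 211 bp downstream of the TSS. All 4 carried H3K4me3 in both treatments. The peak 7.84 kb upstream of Ccr7, its nearest protein-coding gene, overlapped an H3K4me3 peak and a Pol II peak, both listed in GSK only. Of the 47 GSK-only peaks outside promoters, 9 had H3K4me3 in GSK only (19.1%) and 1 in Veh only, and among the 921 shared Veh peaks outside promoters these numbers were 82 (8.90%) and 19. Zinc finger genes named Zfp were nearest to 6 of the 137 (4.38%), compared with 1.90% of Veh-only peaks.

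Of the Veh-only peaks, the highest in −log10 p were short. The first and second, with −log10 p values of 161 and 62.3, lay at the start of chromosome 9, nearest to Mir101c. The third was 203 bp wide on chromosome 17 near Gm41611, with a fold of 13.05. Next came promoter peaks of Dctn1, which encodes the large subunit of dynactin (201 bp, fold 8.18), and of 1700120C14Rik and Mcrs1 (277 bp, fold 7.75). The widest Veh-only peaks were those at the promoters of Cdc42se1 and Pym1 (2751 bp), in the intron near Dpcd, upstream of Cd52, a surface glycoprotein of lymphocytes (2589 bp), and in an intron of Unkl (2584 bp), with folds between 2.51 and 2.95. With lists of equal length the Veh-only leaders were the same 5 peaks. The GSK-only leaders then were Malt1, Rpl17, Snx15, Smarca5, an ISWI remodelling ATPase (fold 6.51), and an intronic peak of Adap1 (fold 5.19). The peaks of Rpl17, Smarca5 and Adap1 overlapped Veh peaks of the full list that were below the limit of the shortened list.

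Some places stood apart from the rest and bear on the counts above. In 0.5 Mb of chromosome 1 from 85 Mb, 31 Veh peaks were listed and no GSK peak, with folds of 2.28 to 4.898 and a median −log10 p of 8.44. The protein-coding genes there are A530032D15Rik, C130026I21Rik, Gm38510 and Gm7609. The same 0.5 Mb held 53 Pol II peaks in Veh and 62 in GSK, 16 and 13 H3K4me3 peaks, and 8 LSD1 peaks in each. On chromosome 4 from 145.5 to 148 Mb, among zinc finger genes, 24 Veh and 2 GSK peaks were listed. On chromosome X the ratio of GSK to Veh peaks was 0.218, from 142 Veh and 31 GSK peaks, and 19.7% of its Veh peaks had a GSK peak (14.0 to 27.02), the lowest share of any chromosome. The others ranged from 29.7% to 40.5%. The Veh peaks of chromosome X had a median −log10 p of 8.80, and those of the whole list 9.42.

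The highest −log10 p values of both lists belonged to places that many antibodies shared. Peaks overlapped by peaks of all 12 lists numbered 43 in Veh and 33 in GSK. They made up 5 of the 10 highest-ranked Veh peaks and 6 of the 10 highest GSK peaks. Chromosome 9 below 3.1 Mb, nearest to Mir101c, held 7 Veh and 6 GSK peaks, with −log10 p up to 941 in Veh and 914 in GSK. A peak in an exon 16.7 kb from the Limd1 start site had folds of 16.6 in Veh and 14.0 in GSK, and a peak 284 kb from Pex2 had folds of 18.7 and 15.1. Without the peaks of all 12 lists, 34.8% of Veh peaks and 94.4% of GSK peaks were shared.

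In base composition, windows of 300 bases around the peak centres differed between places more than between treatments. Promoter windows held 63.6% GC and a median of 26 CpG in shared peaks, 62.5% and 23 in Veh-only peaks, and 66.6% and 30 in GSK-only peaks, while windows at all curated TSSs held 58.0% and 13. Other windows held 50.2%, 49.2% and 49.4% GC in the same order, with a median of 4 CpG in each. The ETS core CGGAAG was in 36.3% of shared promoter windows, 31.2% of Veh-only, 28.9% of GSK-only and 19.9% of TSS windows. The AP-1 motif TGANTCA was in 11.5% of shared, 11.7% of Veh-only and 21.3% of GSK-only windows outside promoters (10 of 47), and in 12.9% of windows of Veh H3K4me1 peaks outside promoters. The RUNX core TGTGGT was in 29.9%, 28.9%, 34.0% and 30.4% of the same windows. A match to letters is a description of the sequence and not a bound site.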

How the data were processed

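H3K27ac ChIP-seq was analysed from 1 library for each treatment, with the lists of 5 other antibodies used for overlap. Per the methods of the study, the authors kept reads that Bowtie2 placed at 1 position of mm10, discarded duplicates with Samtools, and ran MACS2 on each library with input as control. They also state that equal numbers of reads were drawn at random from the libraries to compare signals, and it is not clear from the sources used here if the deposited lists were called on those reads. The deposited lists give a fold ratio over background, a −log10 p, a −log10 q and a score per peak, and no read counts, so depth per peak is unknown. In the broad lists these values are means over a region. All chromosomes given were used.

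Peaks sharing at least 1 bp were called shared. A peak was placed by its centre, with promoters as 31554 windows of 1 kb on either side of the TSSs of 26089 genes with curated RefSeq transcripts (GRCm38). A gene was counted as having promoter H3K27ac where a peak overlapped its window by at least 1 bp, wherever the centre lay. A gene's value is that of the overlapping peak with the highest −log10 p. Lists of equal length keep the Veh peaks of highest −log10 p. Intervals are Wilson 95% intervals for counting error only, and neighbouring peaks are not independent. With 1 library per treatment no test was made. The named peaks are the 5 with the highest −log10 p among shared, Veh-only and GSK-only peaks, the 5 widest of each list, the 5 largest climbs and drops in rank, and listed genes. Further peaks and clusters were chosen after their values were seen. The members and gene lists were chosen with earlier results of these data known. Python 3.11.15, pandas 2.3.3, numpy 2.4.6 and scipy 1.17.1 were used, and the overlap steps were tested on simulated data. Alternatives were other −log10 q limits, overlaps, rankings, promoter windows and TSS sets, and merged peaks. Some genes of the lists are counted but not reported here by name.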

Additional observations from a re-analysis of the deposited data

How the results depend on the processing

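Of 57 alternatives over 15 values, 38 stayed within a set limit, 17 moved past it and 2 reversed a direction. The limit was the interval of the main value where it had one. Gene counts had no interval and were given a wider limit. Ranking by fold thus counted as within it, although genes in Veh only at equal length went from 888 to 1300. Those in GSK only went from 771 to 961. With a −log10 q of at least 5, the ratio of GSK to Veh peaks was 0.275, the share of Veh peaks with a GSK peak 26.1%, the promoter shares 62.2% in Veh and 70.7% in GSK, the median Veh width 616 bp, and genes with promoter H3K27ac in both treatments and in GSK only 1201 and 56. A stricter overlap, covering 50% or more of the peak's width, gave 22.4% of Veh peaks, 91.2% of GSK peaks and, with lists of equal length, 41.6% of Veh peaks. Ranking Veh peaks by fold gave 47.2% shared at equal length and a promoter difference of −10.3 points. Promoter shares were 61.9% and 67.8% with windows of 2.5 kb, 61.9% and 68.4% with all RefSeq TSSs, and 59.4% in Veh when placed by any overlap. Added after seeing the data, a fold of at least 5 turned the ratio of peak numbers to 1.48, and ranking by −log10 p times width turned the promoter difference at equal length to 8.07 points. Leaving out peaks called in all 12 lists moved none of the 10 values it was run on. The cause of these changes was not tested. No paired analysis was possible because each treatment has 1 H3K27ac library and no result comes from a test. The lists give no read depth. A peak missing from the GSK list was not called there, which does not show that the mark is absent.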
